A study of Mus musculus with 24 samples.

Results

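The genes described here are the vasopressin receptors and the cyclic AMP (cAMP) pathway of the mouse distal nephron: Avpr2 and Avpr1a (receptors), Gnas (G protein), Adcy3 and Adcy6 (adenylyl cyclases), Prkaca and Prkar2b (protein kinase A subunits), Akap7 (kinase anchor), Pde4d (phosphodiesterase) and Creb3l1 (transcription factor). They were chosen by name, with earlier results of these data known. Every probe set that names 1 of these symbols and no other was taken. That gave 10 of 18194 genes and 23 of 45101 probe sets, and the brightest probe set over all 24 arrays stands for a gene. RNA came from tubules microdissected from collagenase-treated left kidneys of male C57BL/6J mice, without any genetic or drug treatment. The 2 segments were distal convoluted with connecting tubules (DCT/CNT) and cortical collecting ducts (CCD). Mice adapted for 2 weeks to a cycle of 12 h light and 12 h dark, and tubules were taken at zeitgeber times (ZT, hours after lights on) 0, 4, 8, 12, 16 and 20, so that lights went off at ZT12. Each of the 12 groups of 1 segment and 1 time has 2 arrays, each of a pool of RNA, with 5 animals per time. No age is stated, and neither is whether the 2 pools of a time share animals. P-values of segment differences thus measure the spread between pools, which may be technical. Those of the 24 h cosine fits for rhythm also take in how far the times depart from a cosine.

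Vasopressin, the antidiuretic hormone, binds the V2 receptor encoded by Avpr2 on the basolateral side of principal cells. The receptor activates the stimulatory G protein, adenylyl cyclase makes cAMP, and protein kinase A phosphorylates the water channel aquaporin-2, which then moves to the apical membrane. The V1a receptor encoded by Avpr1a couples instead to the Gq family and calcium, and in the collecting duct it is known from intercalated cells. Phosphodiesterases break cAMP down, and A-kinase anchoring proteins hold the kinase near its targets. The comparisons ask whether transcripts of this pathway follow the time of day in either segment, whether they do so differently, and whether their levels differ between the segments.

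The segment labels were checked against marker genes. All 7 measured DCT/CNT markers, among them Slc12a3 (sodium-chloride cotransporter; mean 10.8 in DCT/CNT and 5.28 in CCD), were higher on each of the 12 DCT/CNT arrays than on any CCD array. Of 7 principal cell markers, 6 were higher on each CCD array, and only Hsd11b2 overlapped. All values are log2 units of array intensity and are compared within a probe set, never between genes. Array medians lay between 5.80 and 5.89 in both segments, but the interquartile range was narrower on DCT/CNT arrays (3.32 to 3.65) than on CCD arrays (4.08 to 4.28). For this reason 2 values stand below for most segment differences, the first with the shift of the median gene (-0.13) taken off and the second after quantile normalization. Differences named as deposited still hold that shift. The 2 pools of a group correlated over genes with r from 0.988 to 0.995, where genes are not independent replicates.

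Promoter windows of the 250 bases upstream of an annotated start (RefSeq, assembly GRCm38.p6) were held for 8 of the 10 genes, 15 windows in all. They were searched on both strands for 6 motifs: the E-box CACGTG of clock factors, the cAMP response element (CRE) TGACGTCA, the CRE half-site TGACG contained in it, the D-box TTATGTAA or TTATGCAA, the ROR and REV-ERB half-site AGGTCA, and the glucocorticoid response element. Of 32851 mouse windows of this length these were found in 6.02%, 1.55%, 17.8%, 1.5%, 14% and 0.387%. The window of Avpr1a, the member with the widest daily swing, and 1 window of Prkaca are shown with the matches in capitals. Prkaca encodes the catalytic kinase subunit, and the window shown holds both an E-box and CRE half-sites.

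Avpr1a, chr10:122448249-122448498, plus strand: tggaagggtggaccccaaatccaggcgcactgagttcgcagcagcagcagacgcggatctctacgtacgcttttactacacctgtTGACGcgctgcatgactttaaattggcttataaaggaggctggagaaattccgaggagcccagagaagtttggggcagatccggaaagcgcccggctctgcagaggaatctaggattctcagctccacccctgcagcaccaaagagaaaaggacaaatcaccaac

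Prkaca, chr8:83972728-83972977, plus strand: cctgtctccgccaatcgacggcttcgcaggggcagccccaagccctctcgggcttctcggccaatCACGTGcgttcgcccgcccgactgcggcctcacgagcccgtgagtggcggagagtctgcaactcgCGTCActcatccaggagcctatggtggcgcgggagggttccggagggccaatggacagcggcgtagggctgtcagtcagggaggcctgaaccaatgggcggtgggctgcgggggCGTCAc

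Avpr1a held 1 CRE half-site, beginning at -165 from the start, and none of the other 5 motifs. The Prkaca window shown held an E-box beginning at -185, and its CRE half-sites, both read on the reverse strand, began at -120 and -6. The other Prkaca window (chr8:83976633-83976882) held none of the 6 motifs. None of the 6 motifs was found in the window of Avpr2. An E-box was also found in 1 window each of Akap7 and Prkar2b, and a CRE half-site in 3 windows of Gnas, 2 of which overlap. A match describes these letters only, and its absence describes only this window.

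Both receptor transcripts followed the time of day in both segments, and they were the only members to do so. Avpr2 was high in the second part of the night and at lights on and low in the middle of the light phase. Avpr1a was high around lights on and lowest at lights off. The 24 h cosine fit put the swing between trough and peak in DCT/CNT at 1.74-fold for Avpr2 and 2.35-fold for Avpr1a, and in CCD at 1.5-fold and 1.81-fold. Adcy3 was the third member whose rhythm passed the test, in DCT/CNT alone, with a smaller swing of 1.32-fold. Rhythm was thus called for 3 of 10 members in DCT/CNT, where 6.57% of all genes were called, and for 2 of 10 in CCD, where 2.47% were. Both receptors were called in both segments, as 1.3% of all genes were. The members were chosen with earlier results of these data known, so these shares cannot show an excess over all genes. A call is an adjusted p under 0.05 (limma's moderated F test, Benjamini-Hochberg over all 18194 genes). The members' median amplitude, the distance from fitted mean to fitted peak, was 0.18 in DCT/CNT and 0.09 in CCD, against 0.13 and 0.10 over all genes.

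**Figure D1:**
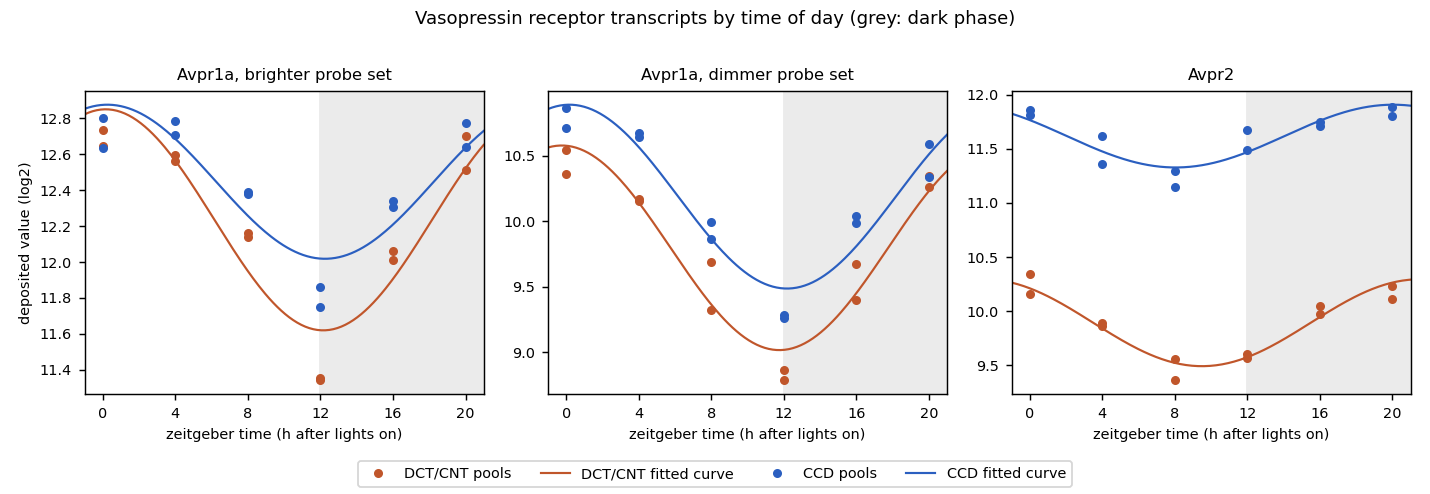
Log2 array values of Avpr2 and Avpr1a (vertical axis) against zeitgeber time in hours (horizontal axis) in DCT/CNT and CCD; each point is 1 pool, curves are the 24 h cosine fits and grey marks the dark phase, with 1 panel for each Avpr1a probe set. Avpr2 is lowest at ZT8 in both segments, Avpr1a is lowest at ZT12 in both, and the DCT/CNT and CCD values of Avpr2 do not overlap.

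Avpr2 (X:73891765-73894428, GRCm38.p6) has 1 probe set. In the 2 pools of DCT/CNT it stood at 10.16 and 10.34 at ZT0, 9.89 and 9.86 at ZT4, 9.36 and 9.56 at ZT8, 9.57 and 9.60 at ZT12, 9.97 and 10.05 at ZT16, and 10.11 and 10.24 at ZT20. From highest to lowest the times ran ZT0, 20, 16, 4, 12 and 8, and of neighbours in this order only ZT0 and ZT20 overlapped between pools. The highest mean was 1.73 times the lowest on the linear scale. In CCD it stood at 11.86 and 11.81 at ZT0, 11.62 and 11.36 at ZT4, 11.15 and 11.30 at ZT8, 11.49 and 11.68 at ZT12, 11.75 and 11.72 at ZT16, and 11.80 and 11.89 at ZT20. ZT20 and ZT0 overlapped at the top, ZT12 and ZT4 overlapped below ZT16, and both ZT8 pools were lowest, so that the highest mean was 1.54 times the lowest. The fitted amplitude was 0.40 (SE 0.05) in DCT/CNT with a peak at ZT 21.5 (SE 0.467 h; adjusted p = 0.000152, limma). In CCD it was 0.29 (SE 0.05) with a peak at ZT 20.05 (SE 0.647 h; adjusted p = 0.00639). The CCD call was lost without ZT8, the time of the trough (adjusted p = 0.186), and in an F test over group means that assumes no cosine shape (adjusted p = 0.0582).

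Avpr1a (10:122448499-122453453) has 2 probe sets, and both showed the same course. On the brighter one the DCT/CNT pools gave 12.64 and 12.74 at ZT0, 12.56 and 12.60 at ZT4, 12.14 and 12.16 at ZT8, 11.34 and 11.35 at ZT12, 12.06 and 12.01 at ZT16, and 12.70 and 12.51 at ZT20. ZT0, ZT20 and ZT4 formed a high group with overlapping neighbours, and ZT8, ZT16 and ZT12 followed below, each apart from the next. The CCD pools gave 12.63 and 12.80 at ZT0, 12.71 and 12.78 at ZT4, 12.38 and 12.39 at ZT8, 11.86 and 11.75 at ZT12, 12.34 and 12.31 at ZT16, and 12.77 and 12.64 at ZT20. The same 3 times were high and overlapped, and ZT12 was again lowest in both pools. Mean levels at the highest time exceeded those at ZT12 by 2.54-fold in DCT/CNT and 1.92-fold in CCD. The amplitude was 0.62 (SE 0.07) in DCT/CNT with a peak at ZT 0.155 (SE 0.457 h; adjusted p = 0.000129, limma). In CCD it was 0.43 (SE 0.07) with a peak at ZT 0.25 (SE 0.655 h; adjusted p = 0.00661), and this call was lost without ZT4 (adjusted p = 0.0568).

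The dimmer Avpr1a probe set swung more. It fell in DCT/CNT from 10.36 and 10.55 at ZT0 to 8.79 and 8.87 at ZT12, and in CCD from 10.87 and 10.71 to 9.29 and 9.26. The means at these 2 times differed 3.09-fold and 2.86-fold. Its amplitudes were 0.78 and 0.70, with adjusted p of 8.25e-06 and 3.14e-05 over all 45101 probe sets (limma). The fitted Avpr2 peak preceded that of Avpr1a by 2.65 h in DCT/CNT and by 4.2 h in CCD, a gap that was not tested.

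Mean levels of cell type markers also differed between times, which was not tested. In bulk tubule RNA, fewer cells of a type and less RNA per cell cannot be told apart. The mean of the 7 intercalated cell markers was lowest at ZT20 (11.33 in DCT/CNT, 11.86 in CCD) and highest at ZT8 (11.66 and 12.02), so it was high where Avpr2 was low. Avpr1a averaged 12.61 and 12.71 at ZT20, among its highest values, and 12.15 and 12.38 at ZT8. With the intercalated cell mean as a covariate, chosen after seeing the data, the amplitudes were 0.41 and 0.30 for Avpr2 and 0.62 and 0.43 for Avpr1a in DCT/CNT and CCD (adjusted p = 0.00173, 0.0359, 0.000429 and 0.0141). The 7 principal cell markers averaged 10.84 at ZT8 to 10.94 at ZT16 in DCT/CNT, and 12.12 at ZT8 to 12.28 at ZT20 in CCD. The DCT/CNT markers averaged 10.45 at ZT8 to 11.50 at ZT20 in DCT/CNT, and the ZT16 pools were far apart in them (SD 0.964). Both of these means were also fitted as covariates, again chosen after seeing the data. Avpr2 then had amplitudes of 0.37 and 0.22 (adjusted p = 0.000198 and 0.0321, limma), against 0.40 and 0.29 without them. Avpr1a had 0.64 and 0.42 (adjusted p = 6.26e-05 and 0.0056, limma). The principal cell list holds Aqp2, which was itself called rhythmic in CCD.

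Markers of neighbouring tissue were present too. The 12 proximal tubule markers averaged 7.29 (ZT8) to 8.48 (ZT12) in DCT/CNT and 7.64 (ZT4) to 8.30 (ZT12) in CCD, and the 7 thick ascending limb markers 7.54 to 8.0 and 6.68 to 7.61. With both as covariates the receptor amplitudes were 0.41 and 0.29 (Avpr2) and 0.58 and 0.41 (Avpr1a), and the 4 calls held (adjusted p from 0.00039 to 0.0287). The 7 smooth muscle, mesangium and fibroblast markers, from cells that carry V1a receptors in vessels, were lowest at ZT4 (6.40 in DCT/CNT, 5.89 in CCD) and highest at ZT20 (7.16 and 6.26). Avpr1a was among its highest values at both of these times. The part of this list in the Avpr1a rhythm was not tested.

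**Figure D2:**
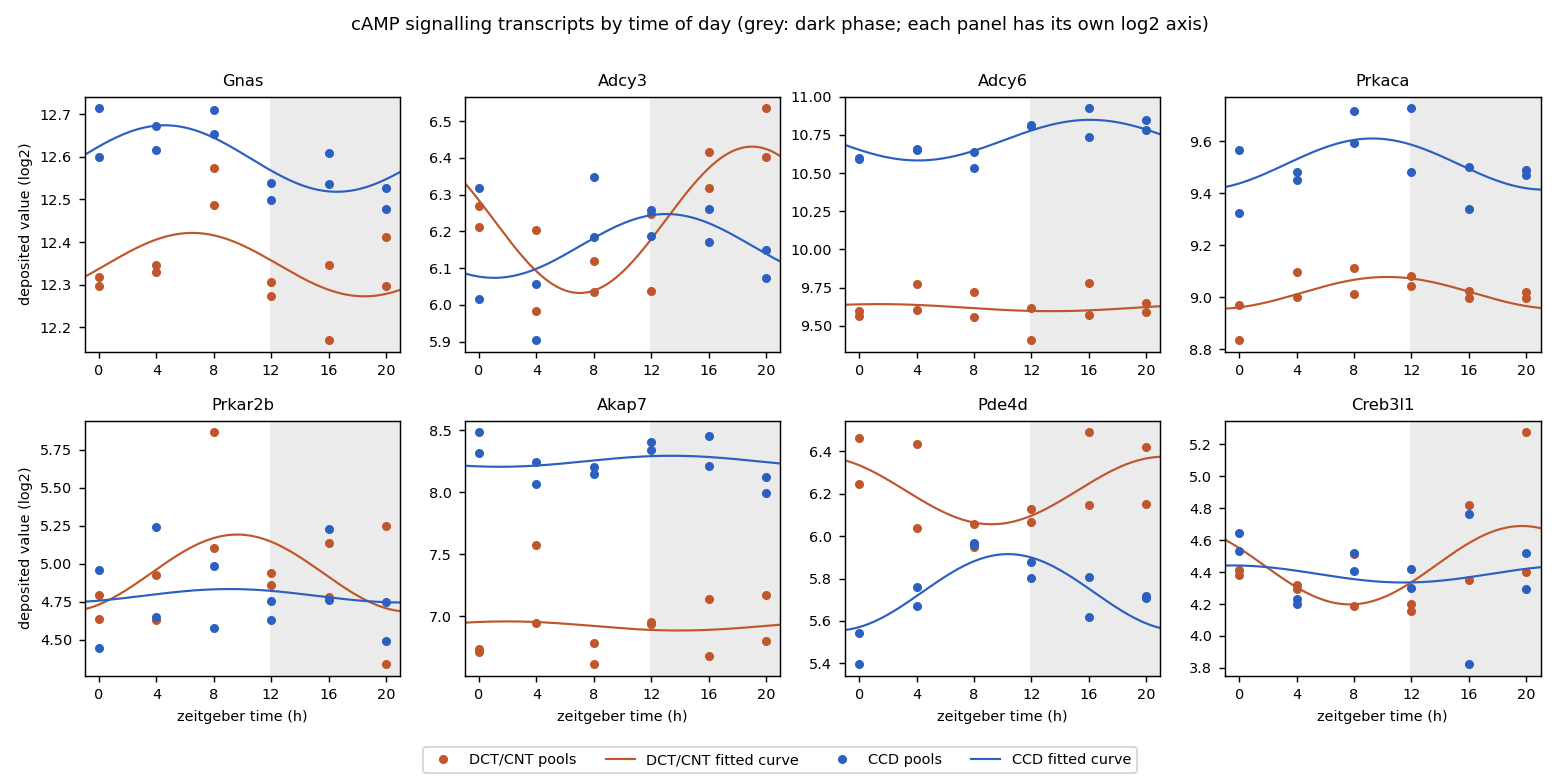
Log2 array values of the other 8 members (1 panel each) against zeitgeber time in hours, with 1 point per pool, the 24 h cosine fit of each segment as a curve and the dark phase in grey. Adcy3 in DCT/CNT is highest at ZT16 and ZT20, and Adcy6 and Akap7 run in parallel, nearly flat bands with CCD above DCT/CNT.

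The remaining members follow in pathway order, and of their rhythms that of Adcy3 in DCT/CNT alone passed the test. Gnas (2:174284320-174346744) encodes the stimulatory G protein alpha subunit from a complex locus with several transcripts. Its brightest probe set stayed within 12.17 and 12.57 in DCT/CNT (median 12.32) and within 12.48 and 12.71 in CCD (median 12.60). Its amplitudes were 0.07 and 0.08 (adjusted p = 0.427 and 0.6, limma). None of its other 4 probe sets was called rhythmic over all probe sets.

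Adcy3 (12:4133116-4213525), a calcium-regulated adenylyl cyclase, gave in DCT/CNT 6.27 and 6.21 at ZT0, 5.98 and 6.20 at ZT4, 6.12 and 6.03 at ZT8, 6.04 and 6.25 at ZT12, 6.32 and 6.42 at ZT16, and 6.54 and 6.40 at ZT20. The 4 pools of ZT16 and ZT20 were above the other 8. The amplitude was 0.20 (SE 0.05), peaking at ZT 19.0 (adjusted p = 0.0393, limma). In CCD the values lay between 5.9 and 6.35 with amplitude 0.09 (adjusted p = 0.658). Leaving out 1 array ended the DCT/CNT call in 6 of 24 cases: the first pools of ZT0, ZT4 and ZT20 and the second of ZT8, ZT16 and ZT20 in DCT/CNT (adjusted p = 0.0514, 0.0811, 0.104, 0.0816, 0.075 and 0.0632). Leaving out 1 time ended it in 5 of 6, all but ZT0 (adjusted p up to 0.238). A probe set of Adcy3 almost as bright had an amplitude of 0.08 in DCT/CNT (adjusted p = 0.563 over all probe sets), and the other 2 were not called either.

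Adcy6 (15:98589978-98610287), the cyclase through which vasopressin mainly acts in the collecting duct, ranged from 9.41 to 9.78 in DCT/CNT (median 9.60) and from 10.53 to 10.93 in CCD (median 10.70). Its amplitude was 0.02 in DCT/CNT (adjusted p = 0.929, limma) and 0.13 in CCD, peaking at ZT 16.1 (adjusted p = 0.251). The segments did not overlap. In DCT/CNT neighbouring times in the order of means overlapped, whereas in CCD the 6 pools of ZT12, ZT16 and ZT20 (10.74 to 10.93) were above the 6 of ZT0, ZT4 and ZT8 (10.53 to 10.66).

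Prkaca (8:83972978-83996444), the alpha catalytic subunit of protein kinase A, stayed within 8.84 and 9.11 in DCT/CNT and 9.32 and 9.73 in CCD. Its amplitudes were 0.06 and 0.10 (adjusted p = 0.581 and 0.458, limma). Prkar2b (12:31958450-32061648) encodes the type II beta regulatory subunit, which keeps the catalytic subunit inactive until cAMP binds. It was dim, below the array medians, at 4.34 to 5.87 in DCT/CNT and 4.44 to 5.24 in CCD. Its pools disagreed, with 5.10 and 5.87 at ZT8 and 5.25 and 4.34 at ZT20 in DCT/CNT. The amplitude of 0.25 there had an SE of 0.13 (adjusted p = 0.376).

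Akap7 (10:25169090-25299217), an A-kinase anchoring protein with a form known from aquaporin-2 vesicles, ranged from 6.61 to 7.58 in DCT/CNT and from 7.99 to 8.48 in CCD. Its amplitude was 0.04 in both segments (adjusted p = 0.959 and 0.976, limma). Creb3l1 (2:91982328-92024170) encodes a transcription factor held in the endoplasmic reticulum membrane until it is cleaved. It was dim, from 4.16 to 5.28 in DCT/CNT and from 3.82 to 4.77 in CCD, and its DCT/CNT pools at ZT20 gave 5.28 and 4.40. The amplitude in DCT/CNT was 0.25 (SE 0.11) with a peak at ZT 19.7 and an adjusted p of 0.284. It was called only with principal cell and DCT/CNT markers as covariates (amplitude 0.43, adjusted p = 0.0299).

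Pde4d (13:108654177-109955969), a cAMP-specific phosphodiesterase, had values that ran in opposite directions in the segments, although neither rhythm nor their difference passed the test. In DCT/CNT it gave 6.46 and 6.25 at ZT0, 6.04 and 6.43 at ZT4, 6.06 and 5.95 at ZT8, 6.13 and 6.07 at ZT12, 6.15 and 6.49 at ZT16, and 6.15 and 6.42 at ZT20. In CCD it gave 5.40 and 5.54 at ZT0, 5.67 and 5.76 at ZT4, 5.97 and 5.96 at ZT8, 5.88 and 5.80 at ZT12, 5.62 and 5.81 at ZT16, and 5.71 and 5.72 at ZT20. The DCT/CNT pools of ZT8 and ZT0 did not overlap, with ZT0 above, and in CCD ZT8 was above every other time and ZT0 below. The amplitudes were 0.16 (peak ZT 21.2) and 0.18 (peak ZT 10.4), with adjusted p of 0.183 and 0.229 (limma). The difference of the 2 rhythms had an unadjusted p of 0.0022 and an adjusted p of 0.391. The second Pde4d probe set peaked at ZT 10.3 and 8.95 in the fit, with adjusted p of 0.784 and 0.997 over all probe sets.

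**Figure D3:**
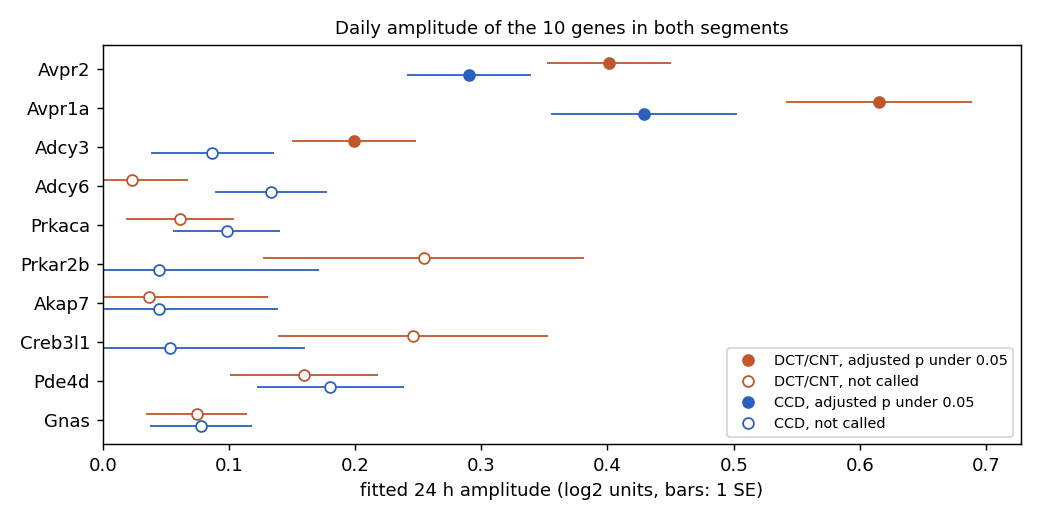
Fitted 24 h amplitude in log2 units (bars of SE from limma) of the 10 members in DCT/CNT and CCD. Filled points are called and open points are not. Avpr1a (0.62 and 0.43) and Avpr2 (0.40 and 0.29) have the largest amplitudes of the 10, and the other members reach at most 0.25.

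Of the 10 members, 0 had a rhythm called different between DCT/CNT and CCD by limma's moderated F test, as 0.011% of all genes did. At an unadjusted p under 0.05 there were 2, Pde4d and Adcy3 (unadjusted p = 0.0174, limma), where 8.89% of all genes passed. The receptors had larger amplitudes in DCT/CNT by 0.11 for Avpr2 and 0.19 for Avpr1a, a gap not tested by itself. The F test, which takes amplitude and peak time together, gave adjusted p of 0.597 and 0.736 (limma). Thus Adcy3, called in DCT/CNT and not in CCD, was not shown to differ between them (adjusted p = 0.488).

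Levels over all times separated the collecting duct from the distal tubule for Avpr2, Adcy6 and Akap7. The 12 DCT/CNT arrays averaged 9.89 for Avpr2 (SD 0.31) and the 12 CCD arrays 11.62 (SD 0.24). The difference, DCT/CNT minus CCD, was -1.72 log2 units (SE 0.05, adjusted p = 3.15e-13 for this deposited difference, limma). With the shift of the median gene taken off it was -1.60, or 3.03-fold higher in CCD, and 0.577% of genes had a difference at least as low. After quantile normalization it was 2.48-fold higher in CCD (adjusted p = 5.57e-12). Akap7 averaged 6.92 (SD 0.27, n = 12) and 8.25 (SD 0.15, n = 12), a deposited difference of -1.33 (adjusted p = 4.50e-10, limma). That was 2.30-fold higher in CCD relative to the median gene and 1.99-fold after quantile normalization (adjusted p = 5.23e-08). Its second probe set, with a mean of 3.17, went the other way by 0.24. Adcy6 averaged 9.62 (SD 0.10, n = 12) and 10.72 (SD 0.12, n = 12), a deposited difference of -1.10 (adjusted p = 1.18e-11, limma). That was 1.96-fold higher in CCD relative to the median gene and 1.56-fold after quantile normalization (adjusted p = 1.29e-08). For these 3 genes, and for Prkaca, each CCD array was above every DCT/CNT array, as in 19.4% of all genes. No member showed the reverse, every DCT/CNT array above every CCD array, which 8.43% of all genes did.

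Pde4d went the other way and was higher in DCT/CNT, at 6.22 (SD 0.19, n = 12) against 5.73 (SD 0.17, n = 12). The deposited difference was 0.48 (adjusted p = 2.06e-06, limma), with overlap between the arrays, and its second probe set differed by 0.55 in the same direction. Relative to the median gene this was 1.52-fold and after quantile normalization 1.36-fold (adjusted p = 2.96e-05). Prkaca (-0.49 in deposited units), Gnas (-0.25) and Avpr1a (-0.21) were called lower in DCT/CNT in the deposited values. Relative to the median gene these 3 differences were -0.37, -0.12 and -0.09. After quantile normalization they differed by -0.03, 0.01 and 0.06 (adjusted p = 0.461, 0.789 and 0.206). Other probe sets of these genes, as deposited, gave -0.20 for Prkaca, -0.39 for Avpr1a and -0.78, 0.18, 0.16 and 0.12 for Gnas. In the Gnas probe set at -0.78 (adjusted p = 6.81e-07 over all probe sets, limma) every CCD array (7.84 or more) was above every DCT/CNT array (7.47 or less). Adcy3, Prkar2b and Creb3l1 were not called in the deposited values (0.07, 0.15 and 0.05), and Creb3l1 was lower in DCT/CNT by 0.30 after quantile normalization (adjusted p = 0.0242).

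In all, 1 of 10 members was called higher in DCT/CNT (background 30.4% of all genes) and 6 were called lower (background 47%). The segment test called 77.4% of all genes in one direction or the other, so a call alone says little of a member. After quantile normalization 1 member (Pde4d) was called higher and 4 (Avpr2, Adcy6, Akap7 and Creb3l1) lower, against 33% and 31.6% of all genes. The members' median difference relative to the median gene was -0.11.

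**Figure D4:**
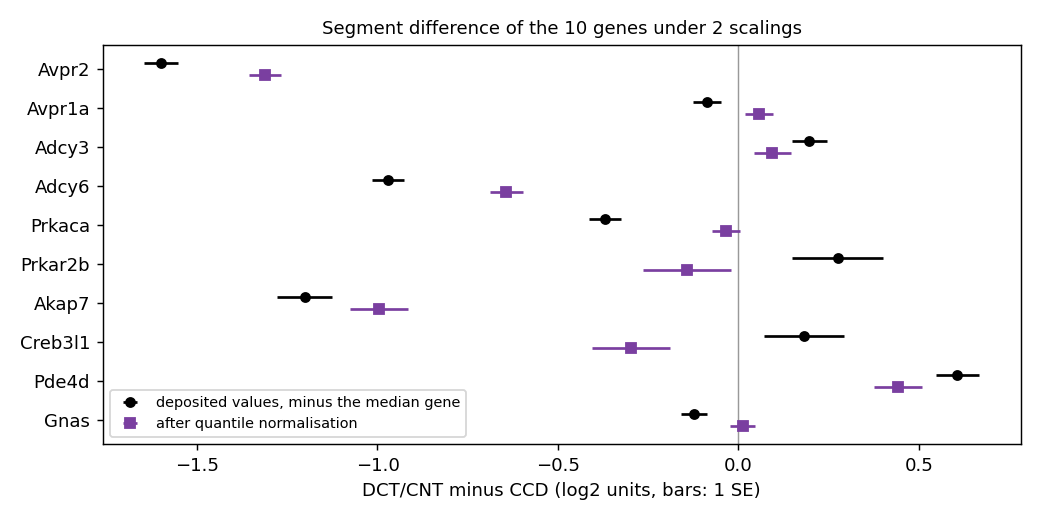
Segment difference of each member in log2 units, DCT/CNT minus CCD, from the deposited values relative to the median gene and after quantile normalization, with SE bars from limma. Avpr2, Akap7 and Adcy6 lie well below 0 and Pde4d above 0 on both scales, while Prkaca, Gnas and Avpr1a lie near 0 after quantile normalization.

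The wider cAMP pathway was given by 8 lists with 93 measured genes besides the members. In DCT/CNT 4 of 93 were called rhythmic and in CCD 0 of 93 by limma, 4.3% and 0% against 6.57% and 2.47% of all genes. At an unadjusted p under 0.05 there were 26 and 16 (28% and 17.2%, against 24.5% and 14.2% of all genes), and the median amplitudes, 0.14 and 0.10, were also close to those over all genes. The 4 were Arrb2, Akap8l, Rgs2 and Casr. Arrb2, a beta-arrestin that uncouples receptors from G proteins, stood at 8.94 and 9.0 at ZT8 and at 7.89 and 8.41 at ZT20 (amplitude 0.37, peak ZT 7.13, adjusted p = 0.00278). Akap8l, a nuclear relative of the anchoring proteins, had an amplitude of 0.41 and a peak at ZT 7.0 (adjusted p = 0.00636). Both fitted peaks fell in the light phase, and the highest DCT/CNT mean was at ZT8 for Arrb2 and at ZT4 for Akap8l. With the intercalated cell markers as a covariate all 4 calls were lost, where calls over all genes fell from 1195 to 313. The amplitudes were then 0.20 for Arrb2, 0.47 for Akap8l, 0.21 for Rgs2 and 0.21 for Casr (adjusted p = 0.291, 0.0946, 0.187 and 0.0928, limma). The CCD amplitudes of Arrb2 and Akap8l were 0.18 and 0.05 (adjusted p = 0.262 and 0.946, limma). The fitted CCD peak of Arrb2 was at ZT 16.55. Neither of these 2 rhythms was called different between segments (adjusted p = 0.0879 and 0.379). For Arrb2 the unadjusted p of this difference was 2.42e-05 (limma). It was called in 1 of 24 omissions of 1 array and in 1 of 13 other alternatives (adjusted p = 0.0228 and 0.0366, limma).

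Rgs2, a regulator that shortens G protein signalling, peaked at ZT 8.53 with an amplitude of 0.20 (adjusted p = 0.0390, limma) and lost its call in 9 of 24 omissions of 1 array, all of DCT/CNT (adjusted p up to 0.0753). Casr, the calcium-sensing receptor, which lowers cAMP, peaked at ZT 0.113 with an amplitude of 0.21 (adjusted p = 0.0452) and lost its call in 17 of 24, 10 of them DCT/CNT arrays (adjusted p up to 0.0993). By list, the called counts in DCT/CNT were 1 of 14 other receptors acting on cAMP (Casr), 0 of 11 G protein alpha subunits, 2 of 11 desensitisation genes (Arrb2 and Rgs2) and 0 of 8 other adenylyl cyclases. They were 0 of 8 other kinase A subunits, inhibitors and EPAC, 1 of 13 other anchoring proteins (Akap8l), 0 of 14 other phosphodiesterases and 0 of 14 CREB family members, coactivators and SIK kinases.

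Between the segments, 33.3% of the 93 (31 genes) were called higher in DCT/CNT and 50.5% (47 genes) lower, near the 30.4% and 47% of all genes. After quantile normalization 39 were called higher and 30 lower (41.9% and 32.3%, against 33% and 31.6% of all genes). Of the 14 other receptors 9 were called higher and 4 lower in DCT/CNT (10 and 4 after quantile normalization), and of the 8 other adenylyl cyclases 4 and 0 (3 and 0). The CREB list had 2 higher and 11 lower of 14, which became 3 and 6 after quantile normalization. The G protein alpha subunits had 1 higher and 7 lower of 11, which became 3 and 4. Relative to the median gene, the prostaglandin E2 receptor gene Ptger1 was lower in DCT/CNT by -2.25 (-2.09 after quantile normalization) and Ptger3 higher by 1.38 (1.7); Ptger3 is also a thick ascending limb marker. Of the cyclases, Adcy1 was higher by 1.05 (0.58) and the bicarbonate-sensitive Adcy10 by 0.54, but by only 0.13 after quantile normalization (adjusted p = 0.170, limma). Both cyclase genes were dim, below the array medians. In DCT/CNT and CCD, Adcy1 averaged 4.16 and 3.24 and Adcy10 averaged 3.46 and 3.05. When dim genes were left out, calls higher in DCT/CNT fell from 5522 to 1829 over all genes.

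The inhibitory G protein genes Gnai2 and Gnai3 were lower in DCT/CNT, by -0.96 and -0.67 relative to the median gene (-0.64 and -0.33 after quantile normalization). So were the beta-arrestin gene Arrb1 (-1.17 and -0.84) and the kinase A inhibitor genes Pkib (-0.73 and -0.39) and Pkia (-0.77 and -0.49). Of the anchoring protein genes, Akap8l (-1.09 and -0.86) and Akap13 (-0.67 and -0.38) were lower. The calcium-calmodulin-activated phosphodiesterase genes split, with Pde1c lower (-1.43 and -1.12) and Pde1b higher (1.28 and 0.96) in DCT/CNT. Pde1b was dim in CCD, with a mean of 4.71 against 5.86 in DCT/CNT. The coactivator gene Crebbp (-0.85 and -0.54) and Creb1 (-0.61 and -0.27), a direct substrate of kinase A, were lower.

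Of 12 genes of vasopressin-regulated transport, 1 was called in DCT/CNT and 1 in CCD (8.33% each, against 6.57% and 2.47% of all genes). In DCT/CNT it was Kcnj1, the ROMK potassium channel (amplitude 0.19, peak ZT 20.5, adjusted p = 0.00757, limma). In CCD it was Aqp2 (amplitude 0.23, peak ZT 17.98, adjusted p = 0.0282, limma), whose call was lost in 4 of 24 omissions of 1 array. Those 4 were the second CCD pools of ZT4, ZT16 and ZT20 and the first of ZT8 (adjusted p = 0.0897, 0.075, 0.092 and 0.0868). Relative to the median gene, Aqp2 and Aqp4 were lower in DCT/CNT by -2.17 and -3.34 log2 units (-1.85 and -3.06 after quantile normalization). The CCD pools of Aqp2, the water channel that Avpr2 controls, were lowest at ZT4 and ZT8 (9.91 to 10.14). Their highest mean was at ZT20 (10.35 and 10.59), which overlapped ZT16 (10.305 and 10.485). At ZT0, where Avpr2 in CCD was near its highest (11.86 and 11.81), Aqp2 gave 10.305 and 10.212. The fitted CCD peaks were ZT 17.98 for Aqp2 and ZT 20.05 for Avpr2. Whether Aqp2 follows Avpr2 was not tested. The DCT/CNT amplitude of Aqp2 was 0.17 (peak ZT 15.2, adjusted p = 0.0709, limma).

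The genes most like each receptor over the 12 group means, after each segment's mean was subtracted, were ranked by Pearson's r as a description. For Avpr2 they were Tubb6 (a beta tubulin; r = 0.976), Fam221a (0.968), Impa1 (inositol monophosphatase; 0.963), Gipc2 (0.959) and Cltc (clathrin heavy chain; 0.957). For Avpr1a they were Tmod1 (tropomodulin; 0.962), Efhd1 (0.962), Col4a1 (a basement membrane collagen; 0.960), Diaph1 (a formin; 0.946) and Tnfaip2 (0.935). The receptors themselves correlated at 0.532, and Avpr2 ranked 1637 among the genes like Avpr1a. These points share libraries, and all profiles of 12 means are ranked against 18194 genes.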

How the data were processed

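Expression was measured on 24 arrays, 2 pools in each of 12 groups of segment and time, from 10 ng of total RNA amplified per array, per the labels. The authors' deposited table holds log2 values by RMA, per the submitters' processing notes, for 45101 probe sets. Software version, and whether both segments were normalized in 1 run, are not given in the sources used here. RMA gives relative levels within a probe set and compresses low values, which understates changes of dim genes. There is no read depth on arrays: precision depends on how many there are and on the spread between pools. The SD between DCT/CNT pools was 0.37 for dim Prkar2b and 0.06 for Avpr1a.

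Of the probe sets, 34958 named 1 symbol, 932 several and 9211 none in the platform's probe table (34754 matched GRCm38.p6 by gene number, 0 symbols updated). The brightest probe set of each of 18194 genes was used, with no filter. limma 3.58.1 in R 4.3.3 fitted a 24 h cosinor with a mean, cosine and sine per segment (18 residual degrees of freedom), tested with moderated F tests, and for segment differences a fit of 12 group means (12 residual degrees of freedom). P-values were adjusted by Benjamini-Hochberg over all genes and called under 0.05. SE are limma's and SD are between arrays or pools. Scripts were tested on simulated data. All covariate fits on intercalated cell, principal cell and DCT/CNT markers were added after seeing the data.

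The members and all gene lists were chosen with earlier results of these data known. Of 187 listed genes 172 were measured, and the others were not analysed here. Named genes are all members, from each pathway list up to 4 called rhythms and 2 segment differences by smallest adjusted p, and for each receptor the 5 most correlated genes without predicted genes. Alternatives covered normalization, dim genes (a group mean of 6 in any group), choice of probe set, variance model, segment fitted alone, group means, pool number, marker covariates, and omission of each array and each time.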

Additional observations from a re-analysis of the deposited data

How the results depend on the processing

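Avpr2 and Avpr1a kept their DCT/CNT rhythm calls under every alternative run. Without 1 array at a time, members called rhythmic numbered 2 to 3 in DCT/CNT and 2 to 2 in CCD, with 0 to 0 differing, 1 to 1 higher and 6 to 6 lower in DCT/CNT. Members rhythmic in CCD fell from 2 to 1 with the F test over group means, without ZT4 and without ZT8. Members higher in DCT/CNT numbered 3 with equal medians and 2 with cyclic loess, and members lower 3 with cyclic loess, against 1 and 6. Among members, the segment difference turned sign for Avpr1a (0.0574 with quantile normalization, 0.101 with cyclic loess), Gnas (0.0114 and 0.0544), Creb3l1 (-0.297 and -0.238) and Prkar2b (-0.141 and -0.13). Avpr1a was called higher in DCT/CNT with cyclic loess (adjusted p = 0.0264, limma) but not with quantile normalization. Creb3l1 was called lower with quantile normalization (adjusted p = 0.0242, limma) but not with cyclic loess. Gnas and Prkar2b were called under neither. The sign also turned for Casr (0.20 and 0.23), Kcnj1 (0.0172, cyclic loess) and Rgs2 (-0.0648, mean of all probe sets of a gene). Creb3l1 also turned negative in omissions of 1 array (down to -0.0237) and of 1 time (down to -0.0202). Prkar2b reached -0.254 in an alternative other than these 2 normalizations. The cause of these turns was not tested. Over all genes, called segment differences were higher in DCT/CNT in 39.2% as deposited, 56.9% with equal medians, 51.1% with quantile normalization and 50.1% with cyclic loess, where the median gene stood at -0.13, 0.08, 0.01 and 0.00. The 1195 genes rhythmic in DCT/CNT became 226 with the segment fitted alone, 450 when group means were tested, 788 under array weights, 693 given the covariates for proximal tubule and thick limb, 313 with the intercalated cell covariate and 565 to 788 without 1 time. The 449 in CCD became 117 when group means were tested, 846 under array weights, 718 with a variance trend, 232 with principal cell and DCT/CNT covariates, 240 with the intercalated cell covariate, 132 to 255 without 1 time and 242 to 477 without 1 array (242 to 297 without either CCD pool of ZT8 or ZT12 or the first of ZT16). The 2 genes whose rhythm differed became 1 to 4. The segment calls, 5522 higher and 8553 lower, became 3511 and 6641 given the same proximal tubule and thick limb covariates, 1829 and 7941 without dim genes, and 14177 and 18413 over probe sets. Of 14 other alternatives, 10 ended the Adcy3 call (adjusted p up to 0.573, limma), 11 that of Casr (0.3), 7 Rgs2 (0.187), 4 Aqp2 (0.355), 3 Kcnj1 (0.107), 3 Akap8l (0.106) and 1 Arrb2 (0.291). Arrb2 and Kcnj1 lost theirs without ZT8 (0.0743 and 0.132), Akap8l without ZT4 (0.0542), and Rgs2, Casr and Aqp2 in 5, 6 and 6 of 6 omissions of a time. Pool numbers do not pair the samples: deviations of same-numbered pools correlated across segments with r from -0.025 to 0.086. With the replicate block on pool number the member counts were 3, 2, 0, 1 and 6, and 1139 and 403 genes were rhythmic; with time and pool number as a pair, 1 and 6 members were called higher and lower. Dim members (Prkar2b, Creb3l1) and the 2 pools per time limit what small amplitudes can show.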
